A study of Thermothelomyces thermophilus with 18 samples.

Results

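The early transcriptional response of wild-type Myceliophthora thermophila (MtWT, strain ATCC 42464) to cellulose was read from 6 of the 18 RNA-seq libraries of the series, the 3 MtWT libraries made after 4 h on Avicel and the 3 made after 4 h on starch. Of the 9109 genes with read counts, 8573 passed the filter on low counts and were tested. Genes were taken from the whole table with no other selection. The series was made to ask how the transcription factor MtTRC-1 acts on cellulase production, and it also holds an Mttrc-1 deletion strain and libraries after 6 h on Avicel. M. thermophila is a thermophilic filamentous fungus that degrades plant biomass, and Avicel is a microcrystalline cellulose. All cultures were first grown for 16 h at 45 °C on 2% glucose, and the washed mycelia were then moved to Vogel's salts with Avicel or starch, each at 2%, as the sole carbon source. Both compared groups are the same unmodified strain, share this growth on glucose and were harvested at the same time, so that the carbon source of the last 4 h is the only labelled difference between them. Starch is itself degraded and used by the fungus, and there is no library from before the transfer, so a higher value on Avicel is a difference from starch and not a change from a starting level. The methods describe the 3 libraries of each group as independent biological replicates. The deposited descriptions of the third MtWT library of each group repeat the name of the second, and the libraries were told apart by their titles, which match the column names.

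Cellulose is broken down outside the hypha by enzymes that act together. Cellobiohydrolases release cellobiose from chain ends, endoglucanases cut within the chains, and beta-glucosidases split cellobiose into glucose, while lytic polysaccharide monooxygenases (LPMOs) cleave the crystalline surface oxidatively and can take their electrons from cellobiose dehydrogenase. Most of these enzymes are secreted. Secreted proteins enter the endoplasmic reticulum (ER) through the Sec61 translocon and are folded there by chaperones and disulfide isomerases. Stress in the ER sets off the unfolded protein response (UPR), which serves to maintain protein homeostasis. Starch, in contrast, is hydrolysed by amylases, glucoamylase and alpha-glucosidases.

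The 6 libraries held between 20135355 and 24387079 counted reads each. Levels are given below as CPM, read counts scaled to a common library total, after scaling with the trimmed mean of M-values (TMM). CPM is not corrected for gene length and is compared only within a gene. Differences are given as the log2 fold change of Avicel over starch. They were tested with the quasi-likelihood test of edgeR, and p was adjusted over all genes tested by the Benjamini-Hochberg method. The test gives no standard error (SE). The SE printed is the size of the log2 fold change over the square root of the F statistic. Where a group held few reads, this SE understates the error. A gene was called when the adjusted p was under 0.05 and the log2 fold change was over 1 in either direction. By this rule 853 genes were called higher on Avicel, 9.95% of those tested, and 840 were called lower, 9.80%, so that 19.7% were called in all. The log2 fold change was above 0 in 47.0% of the genes tested, and the adjusted p alone was under 0.05 in 74.4%. The 3 Avicel and the 3 starch libraries did not overlap in 71.9% of the genes tested, so that a lack of overlap alone did not set a gene apart. The scaling mattered, since the TMM factors were 0.777 to 0.809 in the Avicel libraries and 1.15 to 1.16 in the starch libraries. With scaling by library totals alone, the median moved down by 0.54 on the log2 scale, and 432 genes were called higher against 2414 lower.

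The increases reached further than the decreases. Of the genes called higher, 160 had a log2 fold change over 3 and 71 over 5, whereas among the genes called lower 39 and 4 passed the same values in the other direction. The median log2 fold change over all genes tested was -0.058, and it rose with the read level, from -0.43 in the decile of genes with the lowest mean CPM to 0.48 in the decile with the highest. In this highest decile 210 genes were called higher and 23 lower, while in the lowest 88 were called higher and 199 lower. Of the 1693 genes called, 525 stayed under 10 CPM in both groups.

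**Figure D1:**
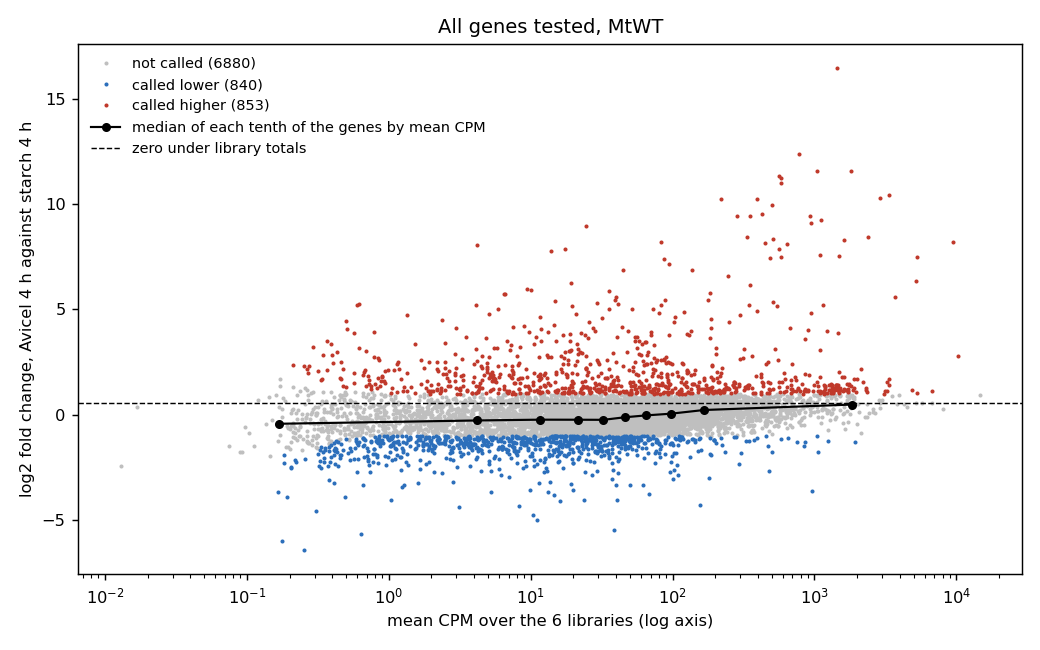
Log2 fold change of Avicel 4 h over starch 4 h (vertical axis) against the mean CPM of the 6 MtWT libraries (horizontal log axis) for the 8573 genes tested, with the 853 genes called higher in red, the 840 called lower in blue and the median of each decile of read level in black. The points reach much further above 0 than below it, and the dashed line, 0.54 above 0, shows where zero lies when libraries are scaled by their totals.

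All 7 cellulase and cellobiose dehydrogenase genes named in the study were called higher on Avicel, with a median log2 fold change of 6.36 and a range from 2.56 to 8.19. The study picked these genes from the same libraries for their behaviour in the deletion strain, so their count is not independent evidence of a direction. The gene with the most reads among them was cbh-1 (Mycth_109566), which encodes a cellobiohydrolase. It was at 18372, 18053 and 20605 CPM on Avicel and 67.8, 64.6 and 63.2 CPM on starch (log2 fold change 8.19, SE 0.066, adjusted p = 1.65e-32), a 292-fold difference. No starch library came near an Avicel library.

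The second cellobiohydrolase gene, cbh-2 (Mycth_66729), was at 9635, 9903 and 12179 CPM on Avicel and 62.8, 56.3 and 60.2 CPM on starch (log2 fold change 7.47, SE 0.10, adjusted p = 2.21e-23). The endoglucanase gene gh5-1 (Mycth_86753) was at 9676, 9565 and 11515 CPM on Avicel and 129, 126 and 120.1 CPM on starch (log2 fold change 6.36, SE 0.073, adjusted p = 2.74e-29). Both genes thus lay far above the starch libraries in every Avicel library, and the ratio of gh5-1 was the smaller. Endoglucanase V (Mycth_76901) was at 1105, 959 and 1124 CPM on Avicel and 28.6, 28.3 and 31.2 CPM on starch (log2 fold change 5.18, SE 0.083, adjusted p = 9.62e-24). Cellobiose dehydrogenase (Mycth_81925), the electron donor of LPMOs, was at 3315, 3128 and 2477 CPM on Avicel and 16.4, 15 and 16 CPM on starch (log2 fold change 7.55, SE 0.14, adjusted p = 5.37e-18). Avicel replicate 3 was the lowest of the 3 for this gene although it was the highest for cbh-1, cbh-2 and gh5-1.

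The 2 beta-glucosidase genes of the list differed widely. The gh1-1 gene (Mycth_115968) was at 2093, 2101 and 2465 CPM on Avicel and 64.1, 58.7 and 58.9 CPM on starch (log2 fold change 5.20, SE 0.08, adjusted p = 9.27e-25). The other beta-glucosidase gene, Mycth_66804, was at 37.9, 32.7 and 38.6 CPM on Avicel and 6.52, 6.03 and 5.95 CPM on starch and had the smallest increase of the list (log2 fold change 2.56, SE 0.12, adjusted p = 8.63e-16). Both sets of libraries were fully apart in both genes.

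Among the 10 LPMO genes, 8 were called higher and none lower, against 9.95% and 9.80% of all genes tested. The median log2 fold change was 7.59, the highest median of the 21 lists. Of the 10, 4 were also named in the study. Mycth_110651 was at 3639, 3516 and 3764 CPM on Avicel and 1.39, 1.11 and 1.13 CPM on starch (log2 fold change 11.55, SE 0.079, adjusted p = 9.29e-34). Mycth_112089, family 61A in the older naming of LPMOs, was at 5917, 5596 and 5848 CPM on Avicel and 4.88, 3.98 and 4.89 CPM on starch (log2 fold change 10.30, SE 0.082, adjusted p = 1.46e-32). Mycth_100518, described as family 61W, was at 1165, 1079.7 and 1239.6 CPM on Avicel and 0.738, 0.299 and 0.39 CPM on starch (log2 fold change 11.24, SE 0.14, adjusted p = 1.33e-23), and its starch value rested on 36 reads over the 3 libraries.

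Mycth_80312 was at 1925, 1802 and 1843 CPM on Avicel and 2.34, 3.33 and 2.34 CPM on starch (log2 fold change 9.45, SE 0.11, adjusted p = 1.78e-27). Mycth_111088, described as family 61I, was at 3230.3 CPM on Avicel and 10.2 CPM on starch on average (log2 fold change 8.30, SE 0.11, adjusted p = 4.65e-24). The other 3 calls had fewer reads. Mycth_92668, Mycth_103537 and Mycth_2063480 had means of 88.1, 79.97 and 28.8 CPM on Avicel against 0.727, 2.12 and 0.685 CPM on starch, with log2 fold changes of 6.89, 5.23 and 5.38. The family was not called throughout. Mycth_2044732, at 0.965, 0.899 and 0.495 CPM on Avicel and 0.246, 0.47 and 0.39 CPM on starch, did not pass the test (log2 fold change 1.07, SE 0.50, adjusted p = 0.0552), although the size factors of DESeq2 in the same test called it. Mycth_2053130 had overlapping groups, at 18, 16.4 and 19.3 CPM on Avicel and 17.4, 15.9 and 13.4 CPM on starch (log2 fold change 0.21, SE 0.11, adjusted p = 0.0831), and its sign changed to -0.33 when libraries were scaled by their totals.

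**Figure D2:**
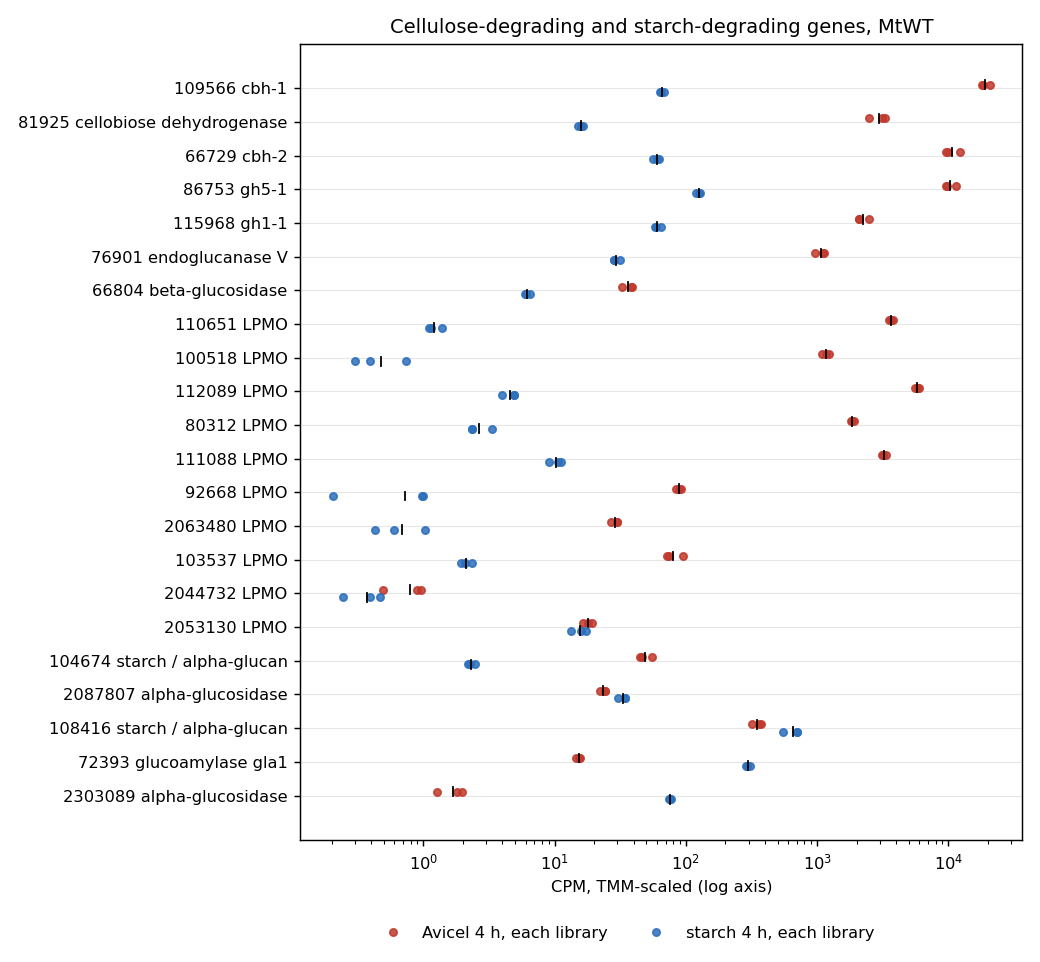
CPM (horizontal log axis) of each of the 7 cellulase and cellobiose dehydrogenase genes, the 10 LPMO genes and the 5 starch and alpha-glucan genes in each of the 3 Avicel 4 h (red) and 3 starch 4 h (blue) MtWT libraries, with black ticks at the group means and locus numbers without the prefix Mycth_. Within a list the genes are ordered by log2 fold change, and red and blue points lie apart for all genes but Mycth_2053130.

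Other genes described as acting on cellulose and beta-glucans were more mixed. Of 12 tested, 6 were called higher and 2 lower, against 9.95% and 9.80% of all genes tested, with a median log2 fold change of 0.83. A further cellobiose dehydrogenase gene, cbdA (Mycth_111388), was at 4681, 4559 and 5078 CPM on Avicel and 13.9, 15.3 and 12.1 CPM on starch (log2 fold change 8.44, SE 0.087, adjusted p = 5.84e-30). An endoglucanase gene, Mycth_111372, was at 1277, 1179 and 1024 CPM on Avicel and 6.6, 6.24 and 6.77 CPM on starch (log2 fold change 7.47, SE 0.094, adjusted p = 1.27e-26). The oligoxyloglucanase gene Mycth_116384, whose product acts on the xyloglucan that coats cellulose in plant walls, had means of 762 CPM on Avicel and 25.5 CPM on starch, and the endoglucanase gene Mycth_109444 had means of 129 and 19.8 CPM. Their log2 fold changes were 4.90 and 2.70. The 2 genes called lower were the beta-glucosidase gene Mycth_2059579, at 11.6, 11 and 7.7 CPM on Avicel and 18.8, 21.7 and 21 CPM on starch (log2 fold change -1.02), and Mycth_2071057, described as a family II cellulose-binding protein of bacterial type (log2 fold change -1.63). The call of Mycth_2059579 was lost with the size factors of DESeq2 and without Avicel replicate 3 or starch replicate 2, where the log2 fold changes were -0.86 and -0.98.

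Genes for enzymes of xylan and arabinan, polymers that surround cellulose in plant walls, were among the strongest increases. Of 13 tested, 8 were called higher and 1 lower, against 9.95% and 9.80% of all genes tested, with a median log2 fold change of 1.39. Mycth_100068, a glycoside hydrolase of family 11 and therefore a xylanase, had the second largest increase of all genes called. It was at 1694, 1502 and 1466 CPM on Avicel and 0, 0.299 and 0.531 CPM on starch (log2 fold change 12.36, SE 0.18, adjusted p = 2.66e-20), and the starch value was a total of 22 reads, none of them in starch replicate 1, so that the log2 fold change was 11.81 without that library and 13.31 without starch replicate 3. The acetylxylan esterase gene Mycth_2066457, whose product removes acetyl groups from xylan, was at 563, 544 and 594 CPM on Avicel and 0.944, 0.77 and 0.709 CPM on starch (log2 fold change 9.45, SE 0.091, adjusted p = 9.59e-31). The xylanase gene Mycth_112050 was at 1263, 1201 and 1392 CPM on Avicel and 5.66, 4.62 and 3.86 CPM on starch (log2 fold change 8.10, SE 0.096, adjusted p = 1.07e-27), and a further xylanase gene, Mycth_116553, had means of 355 and 20.6 CPM (log2 fold change 4.11). The exception was Mycth_105128, a carbohydrate esterase of family 3, at 43.6 CPM on Avicel and 123 CPM on starch (log2 fold change -1.49).

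Of 14 genes for mannan, galactan and pectin, 5 were called higher and 1 lower, against 9.95% and 9.80% of all genes tested. The median was 0.70 on the log2 scale. With library totals 3 were called higher and 3 lower, and the median was 0.16. The largest increase was that of Mycth_103702, an aldose 1-epimerase, an enzyme that interconverts the anomers of free sugars, at 1877, 1713 and 1909 CPM on Avicel and 67.3, 63.7 and 60.2 CPM on starch (log2 fold change 4.85, SE 0.063, adjusted p = 4.14e-28). The polysaccharide lyase Mycth_102322 and the pectin lyase-like gene Mycth_110806 had log2 fold changes of 2.80 and 2.77. Their levels were low on starch, and their means on Avicel were 13.9 and 28.5 CPM. The 1 call in the other direction, the family 35 glycoside hydrolase Mycth_2109142, was under 1 CPM in all 6 libraries and was not called without Avicel replicate 1 or starch replicate 3, where the log2 fold changes were -1.17 and -1.24.

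The 2 starch-degrading genes named in the study were both called lower on Avicel. The study named them among genes lower in the deletion strain on starch in these libraries, so their direction is not independent evidence. Mycth_72393 (gla1, named glaA in the study), which encodes glucoamylase, the enzyme that releases glucose from starch chain ends, was at 15.7, 14.6 and 15.3 CPM on Avicel and 293, 309 and 285 CPM on starch (log2 fold change -4.28, SE 0.077, adjusted p = 5.13e-25), 19.4-fold lower on Avicel. The alpha-glucosidase gene Mycth_2303089 had the largest decrease of the genes named by size, at 1.82, 1.98 and 1.26 CPM on Avicel and 74.7, 75.7 and 76.5 CPM on starch (log2 fold change -5.49, SE 0.13, adjusted p = 3.47e-22). Its neighbour in the RefSeq gene order, Mycth_2303090, for which there is no description here, was at 2.55, 2.88 and 2.64 CPM on Avicel and 46.6, 41.8 and 45.1 CPM on starch (log2 fold change -4.05, SE 0.16, adjusted p = 8.14e-18). The list of 5 did not move as one. A second alpha-glucosidase gene, Mycth_2087807, and a bifunctional gene of glycoside hydrolase family 13, Mycth_108416, were lower by less than the threshold (log2 fold changes -0.49 and -0.89), and both passed it with scaling by library totals. Mycth_104674, a family 31 glycoside hydrolase, a family that holds alpha-glucosidases and alpha-xylosidases, was higher on Avicel, at 55.6, 46.5 and 44.9 CPM on Avicel and 2.17, 2.27 and 2.48 CPM on starch (log2 fold change 4.40, SE 0.13, adjusted p = 4.04e-20).

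The genes of the secretory pathway differed less between the carbon sources than the cellulase and cellobiose dehydrogenase genes named in the study. Of 10 UPR and ER genes named in the study, 6 were called higher and none lower, the other 4 were also above 0 with an adjusted p under 0.05, as was common among all genes, and the median log2 fold change was 1.15. Of all genes tested, 9.95% were called higher. As with most of the cellulases, the study chose the UPR and ER genes on these libraries. The largest increase was that of pdi1 (Mycth_2296005), a protein disulfide isomerase, at 2435, 2358 and 2377 CPM on Avicel and 615, 576 and 557 CPM on starch (log2 fold change 2.04, SE 0.048, adjusted p = 1.65e-22). Calnexin (cnx1, Mycth_2295005), a lectin chaperone that holds glycoproteins during folding, had 1694 ± 35.4 CPM on Avicel and 497 ± 11.9 CPM on starch (SD, n = 3, log2 fold change 1.77, SE 0.04, adjusted p = 5.68e-23). The ER chaperone grp78 (Mycth_2315513) was at 2074, 2073 and 1999 CPM on Avicel and 836, 853 and 798 CPM on starch (log2 fold change 1.31, SE 0.043, adjusted p = 2.51e-19). In each of the 10 genes every Avicel library lay above every starch library. The groups did not overlap in 71.9% of all genes tested, so this did not set the list apart.

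The translocation genes were close together, with log2 fold changes of 1.39 for a sec61 subunit (Mycth_2314691), 1.27 for sec62 (Mycth_2310016), 1.04 for the sec61 beta subunit (Mycth_2073127) and 0.86 for sec63 (Mycth_2303597), of which the last did not reach the threshold. The call of Mycth_2073127 was lost without starch replicate 2, at a log2 fold change of 0.99. The UPR transcription factor gene Mthac-1 (Mycth_2310995) was at 856, 839 and 821 CPM on Avicel and 523, 489 and 515 CPM on starch and did not reach the threshold either (log2 fold change 0.72, SE 0.043, adjusted p = 7.50e-14). HAC-1 messages are activated by removal of an unusual intron, and counts per gene do not separate the spliced from the unspliced form. The disulfide isomerase family gene mpd1 (Mycth_2295433) and the chaperone lhs1 (Mycth_2312968) had log2 fold changes of 0.65 and 0.39. With scaling by library totals, pdi1 and cnx1 remained called, with 1.49 and 1.23, the other 4 calls were lost, and lhs1 turned to -0.16.

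The 2 genes of the control list moved with the scaling. Actin was the reference gene of the study's qPCR, while tef-1 only supplied the constitutive promoter of its overexpression strains. The gene of actin (Mycth_2314852) and that of the elongation factor tef-1 (Mycth_2298136) differed by 0.51 and 0.56 on the log2 scale with TMM, both with an adjusted p under 0.05, and by -0.035 and 0.015 with library totals. The log2 fold changes of mpd1, Mthac-1 and lhs1 were thus of about the size of those of actin and tef-1. Those of pdi1 and cnx1 were larger. The difference between genes was not tested.

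Of 24 genes described as ribosomal proteins, 9 were called higher and none lower, at a list median of 0.65 (log2) with TMM and 0.11 with library totals, a scaling under which no member was called. The largest increase was that of the S7e gene Mycth_2064349, at 1181, 1155 and 1285 CPM on Avicel and 445, 409 and 441 CPM on starch (log2 fold change 1.48, SE 0.056, adjusted p = 4.44e-18). All 9 had means of 432 CPM or more on starch and so lie in the decile of genes with the highest mean CPM. In that decile 210 of 858 genes were called higher and 23 lower, against 9.95% and 9.80% of all genes tested. Among the 15 not called, the bacterial-type S12 gene Mycth_2096341 and the S13 gene Mycth_2058620 had log2 fold changes of 0.67 and 0.21, at means of 171 and 46.8 CPM on starch. The S17 gene Mycth_2088473 just missed the threshold at 0.94.

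Of 13 heat shock and chaperone genes 2 were called higher, the Hsp70 gene Mycth_112686, at 8829, 9161 and 9506 CPM on Avicel and 4295, 4184 and 4146 CPM on starch (log2 fold change 1.12, SE 0.041, adjusted p = 2.05e-18), and the DnaJ gene Mycth_2114944 (log2 fold change 1.35), and neither was called with library totals. The median of this list was 0.27 and turned to -0.28 with library totals. Among 14 ATP synthase and respiratory genes 1 was called in each direction, with a median of 0.42 that turned to -0.12. The gene called higher was the ATP synthase subunit c gene Mycth_112204, at 976 CPM on Avicel and 416 CPM on starch. No member of 5 histone genes and 4 proteasome genes was called, at medians of 0.12 and 0.094, which were -0.42 and -0.45 with library totals. For comparison, 19.7% of all genes tested were called.

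**Figure D3:**
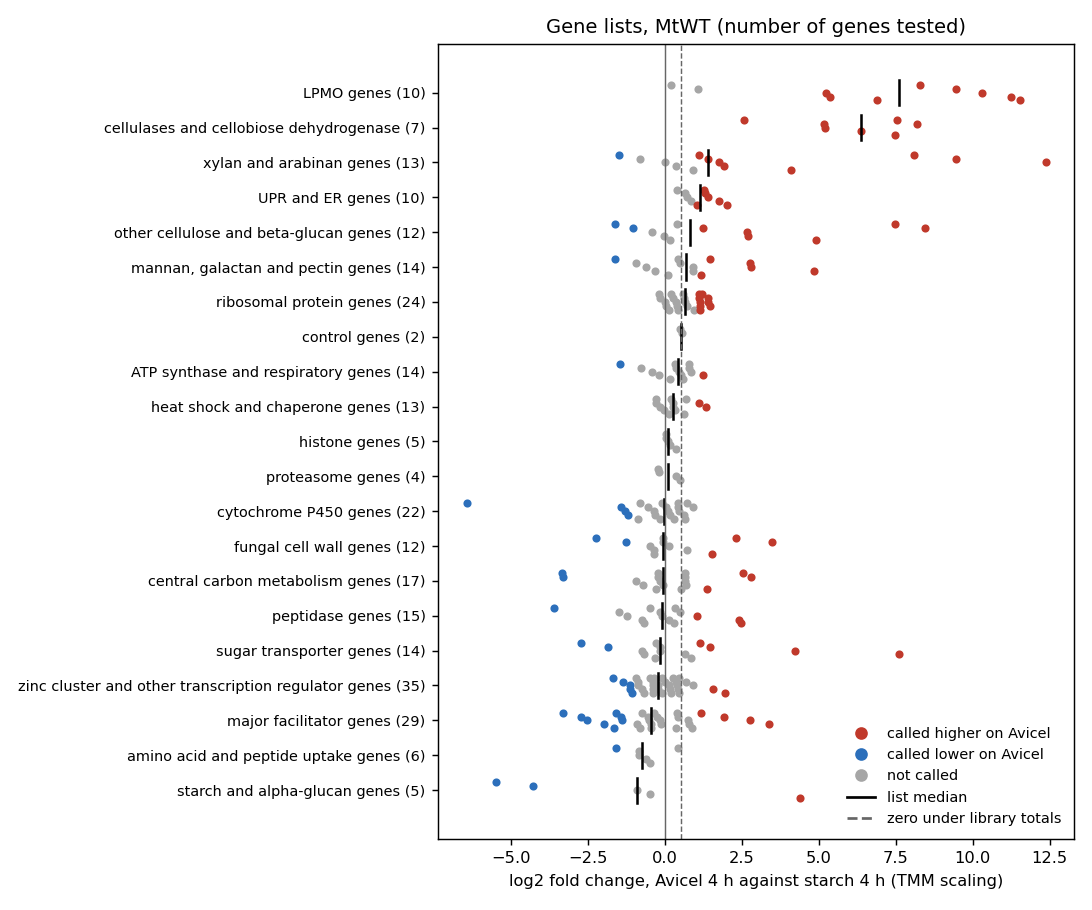
Log2 fold change of Avicel 4 h over starch 4 h for each tested gene of the 21 lists, with genes called higher in red, genes called lower in blue, other genes in grey, the list median as a black bar and the number tested in brackets. LPMO and cellulase genes lie far to the right, most other lists lie near 0, and the dashed line marks zero under scaling by library totals.

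Transport genes moved in both directions. Of 14 genes described as sugar transporters 4 were called higher and 2 lower, at a median log2 fold change of -0.15. Mycth_114107 stood apart from the others on Avicel, at 2080.1, 2057 and 2440.4 CPM on Avicel and 12.6, 10.2 and 11 CPM on starch (log2 fold change 7.60, SE 0.083, adjusted p = 1.09e-29), a 194-fold difference. The next largest increase was that of Mycth_104673, at 15.9, 15.4 and 20.1 CPM on Avicel and 0.985, 1.03 and 0.744 CPM on starch (log2 fold change 4.23, SE 0.20, adjusted p = 5.82e-16), and the remaining 2 were under 5 CPM in every library. In the other direction, Mycth_108924 was at 25, 28.5 and 23.4 CPM on Avicel and 163, 175 and 164 CPM on starch (log2 fold change -2.71, SE 0.066, adjusted p = 3.73e-22). Mycth_112491 was at 50.3, 54.6 and 134 CPM on Avicel and 306, 304 and 251 CPM on starch (log2 fold change -1.84, SE 0.27, adjusted p = 3.55e-05), and Avicel replicate 3 lay well above the other 2, so that the log2 fold change was -2.45 without that library, and still called.

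Of 29 major facilitator genes, a large family of carriers whose substrates are not given here, 4 were called higher and 8 lower, with a median of -0.44. The increase with the most reads was Mycth_107763, at 44.9, 42.3 and 40.7 CPM on Avicel and 6.93, 5.17 and 6.55 CPM on starch (log2 fold change 2.77, SE 0.13, adjusted p = 2.10e-15). The decrease with the most reads among those named was Mycth_2059428, at 9.7, 8.99 and 7.64 CPM on Avicel and 37.8, 36 and 30.5 CPM on starch (log2 fold change -1.98, SE 0.10, adjusted p = 3.78e-15). The larger ratios belonged to genes near the edge of detection. Mycth_2118002, the largest decrease of the list, had means of 0.229 CPM on Avicel and 2.31 CPM on starch. Of 6 amino acid and peptide uptake genes only the ammonium transporter Mycth_105575 was called, at 11.6, 16 and 13 CPM on Avicel and 39.8, 44.5 and 37.7 CPM on starch (log2 fold change -1.59, SE 0.10, adjusted p = 3.97e-13).

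In central carbon metabolism, 3 of 17 genes were called higher and 2 lower, at a median log2 fold change of -0.049. Over all genes tested, 19.7% were called in either direction. Mycth_110871, described by the isocitrate lyase and phosphorylmutase family, which holds the first enzyme of the glyoxylate cycle, was at 9.25, 9.11 and 9.01 CPM on Avicel and 93.5, 90.6 and 88.4 CPM on starch (log2 fold change -3.31, SE 0.092, adjusted p = 6.79e-21), 9.95-fold lower on Avicel. A zinc-binding alcohol dehydrogenase gene, Mycth_2107104, was lower on Avicel by nearly the same ratio. It was at 11.4, 10.5 and 11 CPM on Avicel and 115, 105 and 116 CPM on starch (log2 fold change -3.35, SE 0.072, adjusted p = 2.12e-23). The L-lactate dehydrogenase gene Mycth_110317 was higher on Avicel, at 572, 542 and 795 CPM on Avicel and 84.8, 90.2 and 102 CPM on starch (log2 fold change 2.78, SE 0.11, adjusted p = 1.50e-12). The glycolytic and pentose phosphate genes of the list were not called. Pyruvate kinase (Mycth_2066697) had a log2 fold change of 0.65 and glucose-6-phosphate dehydrogenase (Mycth_2074905) of -0.16.

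Of 22 cytochrome P450 genes none was called higher and 4 were called lower, at a median of -0.019. This share was near the 19.7% of all genes tested that were called. The median was 0.012 with DESeq2 size factors. The P450 call with the most reads was Mycth_2120753, at 5.45, 7.19 and 4.95 CPM on Avicel and 15.6, 17.4 and 13.9 CPM on starch (log2 fold change -1.42, SE 0.14, adjusted p = 9.88e-10). The other 3 were near the edge of detection. Mycth_2114617 had no read on Avicel and 38 reads over the 3 starch libraries, and taking 3 reads over the group as the floor it was at least 8.75-fold lower on Avicel. Among 15 peptidase genes 3 were called higher and 1 lower. The decrease was the largest of the list, the carboxypeptidase gene Mycth_111035, at 3.06, 2.76 and 3.35 CPM on Avicel and 36, 42 and 33.1 CPM on starch (log2 fold change -3.59, SE 0.16, adjusted p = 9.84e-17), while the 3 increases stayed under 10 CPM in all libraries.

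Of 12 genes for the fungal cell wall 3 were called higher and 2 lower, with a median of -0.046, while 19.7% of all genes tested were called. The chitinase gene Mycth_113450 was at 627, 629.6 and 647 CPM on Avicel and 219.8, 226 and 205 CPM on starch (log2 fold change 1.55, SE 0.063, adjusted p = 4.85e-17). Mycth_103070, described as holding a chitin-binding domain, was at 83.8, 76.8 and 140.5 CPM on Avicel and 7.63, 10 and 9.32 CPM on starch (log2 fold change 3.48, SE 0.20, adjusted p = 2.46e-10), and the exo-beta-1,3-glucanase gene Mycth_102522 was at 4.71, 6.11 and 5.66 CPM on Avicel and 24.9, 28.1 and 24.1 CPM on starch (log2 fold change -2.22, SE 0.14, adjusted p = 2.00e-13). The third increase, Mycth_2065851, had overlapping groups, all under 1 CPM, and was not called without Avicel replicate 3 or starch replicate 1 or 2 (log2 fold changes 1.29, 1.98 and 1.79, against 4.15 without starch replicate 3).

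Of 35 genes described as zinc cluster, zinc finger or bZIP regulators 2 were called higher and 5 lower, in all a share near the 19.7% of all genes, at a median of -0.23 on the log2 scale. The increases were Mycth_2058263, at 147, 157 and 169.7 CPM on Avicel and 43.5, 40.9 and 37.7 CPM on starch (log2 fold change 1.96, SE 0.078, adjusted p = 1.61e-17), and Mycth_2121737, at 35.9, 29.4 and 37.2 CPM on Avicel and 11.2, 11.5 and 11.9 CPM on starch (log2 fold change 1.57, SE 0.085, adjusted p = 8.75e-15). Both were also called with library totals. The only decrease that reached 10 CPM was the C2H2 zinc finger gene Mycth_122893, at 49.4, 50.5 and 48.6 CPM on Avicel and 126, 126 and 128 CPM on starch (log2 fold change -1.36, SE 0.057, adjusted p = 5.47e-17). The remaining 4 were under 3 CPM in all 6 libraries.

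The 12 largest increases among genes called, with at least 10 CPM on one carbon source and no overlap, comprised 3 LPMO genes, the family 11 xylanase gene and 8 others, of which only 1 is described. The largest was Mycth_115957, described as a 2-oxoglutarate and iron dependent oxygenase, at 2979, 2783 and 2888 CPM on Avicel and 0, 0.0855 and 0 CPM on starch. Its 3 starch libraries held 2 reads in all against 151465 on Avicel, a ratio of 109631 with a 95% counting interval from 30349 to 905270.0. The fitted log2 fold change was 16.45 (SE 0.16, adjusted p = 5.26e-29), and this SE is far narrower than the counting interval. Mycth_2303045 was at 6643, 6304 and 7023 CPM on Avicel and 4.68, 5.3 and 4.5 CPM on starch (log2 fold change 10.43, SE 0.10, adjusted p = 6.27e-29). Mycth_98122, which has no place in the RefSeq table, was at 441, 440.1 and 439 CPM on Avicel and 0.246, 0.513 and 0.319 CPM on starch (log2 fold change 10.25, SE 0.13, adjusted p = 3.29e-28). The others were Mycth_48716, Mycth_50128, Mycth_81364, Mycth_2303709 and Mycth_2303702, with log2 fold changes from 11.58 down to 9.96, and all 5 lay in one stretch of the genome together with Mycth_115957. Without starch replicate 2 the fitted value of Mycth_115957 was 18.88, and without starch replicate 3 that of Mycth_50128 was 12.22 in place of 11.32.

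Among the 12 largest decreases, besides the glucoamylase gene, the alpha-glucosidase gene and Mycth_2303090, only Mycth_2070001 is described, as holding a signature of D-alanine ligases. It was at 1.36, 0.48 and 0.165 CPM on Avicel and 20.8, 21.1 and 22.3 CPM on starch (log2 fold change -4.99, SE 0.28, adjusted p = 2.55e-13), and the log2 fold change was -6.06 without Avicel replicate 1. Mycth_2303011 had the most reads of the 12 on starch, at 133, 133 and 169 CPM on Avicel and 1646, 1884 and 1773 CPM on starch (log2 fold change -3.61, SE 0.11, adjusted p = 2.16e-14), 12.2-fold lower on Avicel. Mycth_2300079 was at 8.8, 8.63 and 10.5 CPM on Avicel and 128, 129.5 and 123 CPM on starch (log2 fold change -3.77, SE 0.083, adjusted p = 3.94e-23). Mycth_2299985 was at 5.22, 4.56 and 4.12 CPM on Avicel and 76.7, 81.2 and 70.2 CPM on starch (log2 fold change -4.03, SE 0.12, adjusted p = 3.83e-20). The remaining 5, Mycth_2313117, Mycth_2305739, Mycth_2301730, Mycth_2310610 and Mycth_77631, had means between 15.9 and 30.2 CPM on starch and under 3 CPM on Avicel, with log2 fold changes from -4.74 to -3.65. All 24 calls of largest increases and decreases held under each alternative setting tried.

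Genes called in one direction stood next to each other in places. In the RefSeq gene order, used here only for which genes are neighbours, 10 runs of at least 4 consecutive tested genes were called higher, with 53 genes in all, and 7 runs were called lower, with 32 genes. The longest run held 14 genes, from Mycth_2303695 to Mycth_2062976, and its median log2 fold change was 9.46. The summed mean level of its genes was 12504 CPM on Avicel at 4 h and 129 CPM on starch. Inside it the starch level was not the same for all. Mycth_2303695, Mycth_68164 and Mycth_50920 had means of 26.3, 24.6 and 65.5 CPM on starch, and the 9 genes with means up to 1.15 CPM there, leaving out Mycth_2062976, among them Mycth_115957, Mycth_48716 and Mycth_81364, had the largest ratios of the run. The last gene of the run, Mycth_2062976, was under 1 CPM on both carbon sources, and its call was lost without any 1 library other than starch replicate 3, at log2 fold changes from 1.38 to 1.72.

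In the MtWT libraries made after 6 h on Avicel the summed mean level of the same stretch was 285 CPM. Mycth_115957 was at 0.441, 0.603 and 0.423 CPM at 6 h, Mycth_48716 at 2.2, 3.29 and 2.12 CPM and Mycth_81364 at 1.32, 2.14 and 1.81 CPM, against 2979, 2783 and 2888 CPM, 2342, 2214 and 1654 CPM and 1100.5, 1078 and 1329.8 CPM at 4 h. The genes at the ends differed less between the 2 times. Mycth_107763 was at 44.9, 42.3 and 40.7 CPM at 4 h and 44.4, 43.2 and 48.4 CPM at 6 h, and Mycth_2303695 at 126, 129 and 102 CPM and 79.7, 81.7 and 74.7 CPM. Of the cellulases and LPMOs, cbh-1 was at 8568, 8370.2 and 8396 CPM at 6 h, gh1-1 at 1672, 1739 and 1582 CPM and Mycth_110651 at 2798, 2739 and 2812 CPM. The starch libraries are from 4 h only, and the 2 times on Avicel were not tested against each other.

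**Figure D4:**
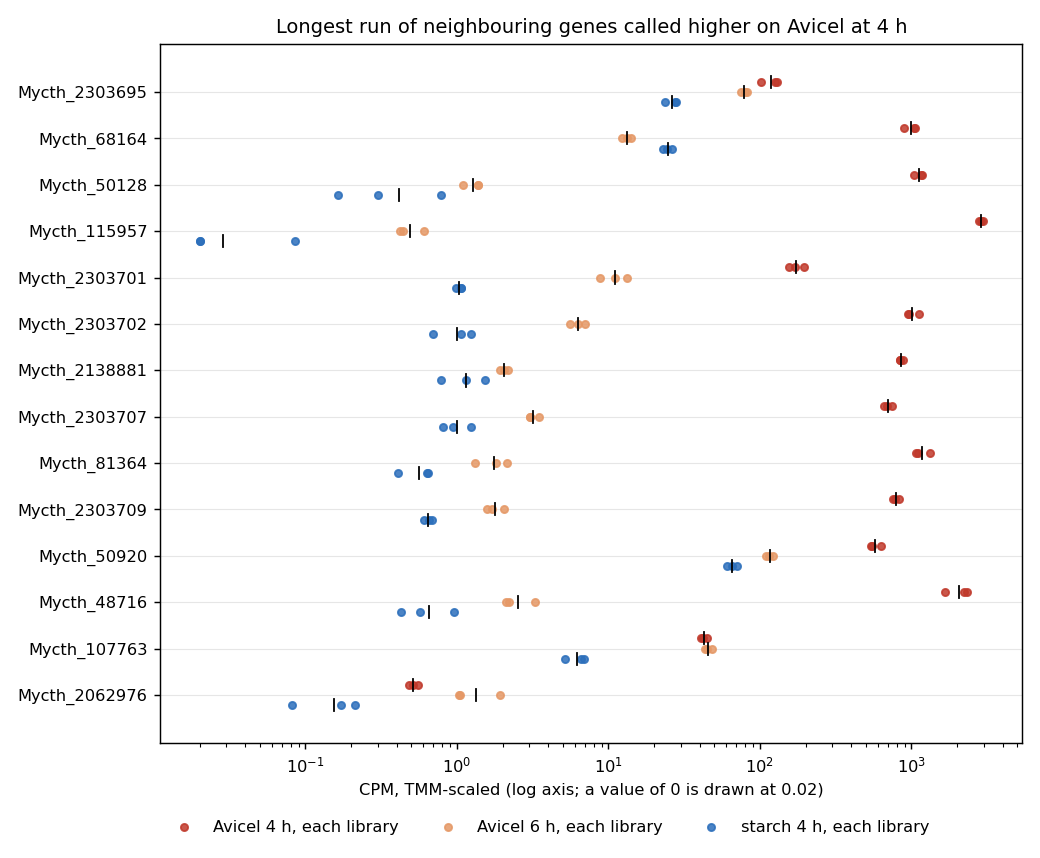
CPM (horizontal log axis) of the 14 genes of the longest run of neighbours, in genome order from top to bottom, in each of the 3 MtWT libraries on Avicel 4 h (red), Avicel 6 h (orange) and starch 4 h (blue), with black ticks at the group means. Most of the genes are far to the right on Avicel at 4 h and close to the starch libraries on Avicel at 6 h, while Mycth_107763 and Mycth_2062976 are as high at 6 h as at 4 h.

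The make-up of the transcript pool differed between the carbon sources. The 10 most abundant genes of each library took 9.21, 9.14 and 9.7% on Avicel and 5.77, 5.69 and 5.84% on starch. The 7 cellulase and cellobiose dehydrogenase genes and 10 LPMO genes together took 4.82, 4.78 and 5.17% on Avicel and 0.0479, 0.0456 and 0.0455% on starch, and cbh-1 alone took 1.47, 1.46 and 1.6% on Avicel and 0.00781, 0.00751 and 0.00731% on starch. The 10 UPR and ER genes took 0.71, 0.706 and 0.669% on Avicel and 0.392, 0.383 and 0.379% on starch. In each of these shares the groups did not overlap, and the exact two-sided permutation test gave p = 0.1, the smallest value that 3 against 3 libraries can give.

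Ranked by RPKM (read counts scaled by gene length and library size), a level that takes gene length into account, 4 of the 6 most abundant genes were the same on both carbon sources, Mycth_45669, Mycth_2133976, Mycth_2141513 and Mycth_2314451, none of which is described here. The first of these led on both, with a mean of 15592 RPKM on Avicel and 11787 RPKM on starch, and its log2 fold change was 0.95, short of the threshold. Of the 4, only Mycth_2133976 was called higher (log2 fold change 1.18), and not with library totals. The other 2 of the Avicel ranking were cbh-1, with a mean of 7803 RPKM, and Mycth_2303328, with a mean of 12485 RPKM on Avicel and 2608 RPKM on starch (log2 fold change 2.80, SE 0.056, adjusted p = 4.18e-24). Those of the starch ranking were Mycth_57779 and Mycth_2297659, whose log2 fold changes of 0.086 and 0.26 turned to -0.46 and -0.28 with library totals.

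The same contrast in the deletion strain rests on 6 other libraries. Of the 853 genes called higher in MtWT, 329 were called higher and 94 lower in the deletion strain, where 8.55% and 8.42% of all genes were called. Of the 840 called lower in MtWT, 210 were called lower and 59 higher. The difference between the 2 responses was tested as a contrast of 4 groups with the same thresholds, by which 10.2% of all genes had a more positive response in MtWT and 9.18% a more negative one. In 9 of the 10 UPR and ER genes the response of MtWT was more positive, with a median difference of 1.76. The study named these genes for their lower levels in the deletion strain in these libraries, so the direction of this difference follows in part from their choice and is given as a description. The same holds for the cellulase and LPMO genes that the study names. For pdi1 the log2 fold changes were 2.04 in MtWT and 0.082 in the deletion strain, a difference of 1.95.

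The cellulose-degrading genes were divided in this ratio, which does not show their levels in the deletion strain. The responses of gh5-1, endoglucanase V and Mycth_112089 were called in both strains and lay close together, with log2 fold changes of 6.36 and 6.37, 5.18 and 5.22, and 10.30 and 10.25, where the first value is that of MtWT. For gh5-1 the difference was -0.013 (SE 0.084, adjusted p = 0.902). The study lists all of these genes as lower in the deletion strain on both carbon sources at 4 h. A like ratio is thus not a like level. Mycth_80312 was the LPMO gene with the largest difference, 9.45 in MtWT and 3.46 in the deletion strain, a difference of 5.99. Among the ribosomal protein genes 1 of 24 passed the test of the difference, with a median difference of 0.34. In the deletion strain the control genes were at 0.55 (actin) and 0.67 (tef-1), near their values in MtWT. The sign was opposite in the transporter Mycth_107763, with a log2 fold change of 2.77 in MtWT and of -8.51 in the deletion strain, a difference of 11.28 (SE 0.26, adjusted p = 7.45e-21). Its deletion-strain libraries on Avicel held few or no reads, so the size of that fitted value is loosely set and the SE understates its error.

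**Figure D5:**
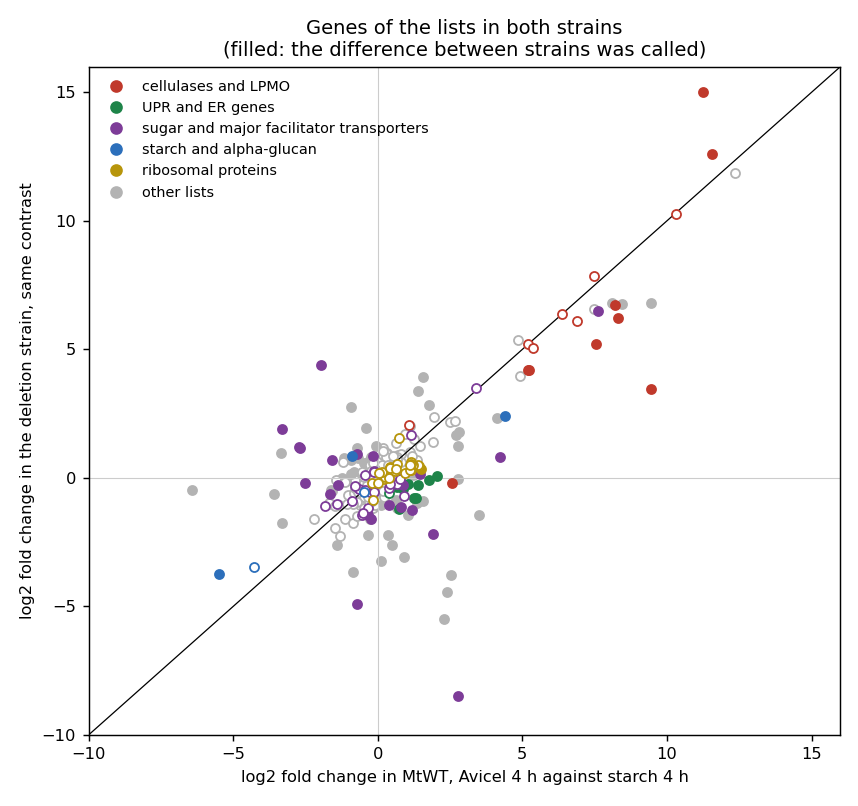
Log2 fold change of Avicel 4 h over starch 4 h in MtWT (horizontal axis) and in the Mttrc-1 deletion strain (vertical axis) for each tested gene of the 21 lists, coloured by list and filled where the difference between strains passed the test. The line marks equal responses. The 10 UPR and ER genes in green lie below it, most cellulase and LPMO genes in red lie on or below it, and Mycth_110651 and Mycth_100518 lie above it.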

How the data were processed

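The deposited table gives, for 18 libraries, the read counts per gene that the authors made from 150-bp paired-end reads, and RPKM values that the authors derived from them. The submitters' processing notes name TopHat2 2.0.8b and HTSeq 0.5.4p2. The versions in the study's methods differ from these and the methods describe mapping to predicted transcripts of the ATCC 42464 genome and counting reads unique to 1 gene. Use of strand was not given in the sources used here. Antisense, overlapping and near-identical genes are therefore uncertain. Counts were used as deposited. Genes with low counts were removed with filterByExpr, and edgeR 4.0.16 (R 4.3.3) was fitted to all 18 libraries in 6 groups of 3, with TMM factors and the robust quasi-likelihood test, with no block. The spread thus came from all groups. The difference between strains was a contrast of 4 groups in the same fit. DESeq2 1.42.0, limma 3.58.1 on log2(RPKM + 1), other scalings, filters, thresholds and sets of libraries were the alternatives. The pipeline was tested on simulated counts.

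Genes were named by rule: the 25 genes the study names, the 12 largest increases and decreases among genes called that reached 10 CPM in a group without overlap, the 6 genes with the highest mean RPKM in each group, and up to 4 called genes per direction in each list. The other genes are named as not passing, as neighbours in a run, or for a level, after their values were seen. The 21 lists (303 genes) came from the study's text and from the first part of a table of gene descriptions ordered by locus, so each covers only part of its family. The members and lists were chosen with earlier results of these data known. Gene order and symbols came from the RefSeq table of assembly ASM22609v1, which matched 9086 of the 9109 genes. Replicates of a group differed by more than counting noise in every pair. The gene deleted in the other strain was not analysed here. Protein and promoter features, planned where reference tables hold them, were not analysed here. Counting intervals and floors cover counting error only.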

Additional observations from a re-analysis of the deposited data

Results flagged for a closer look

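For 32 of the genes named by the first 3 parts of the naming rule, the response to Avicel over starch differed between MtWT and the deletion strain by more than 1 on the log2 scale with an adjusted p under 0.05 in the edgeR contrast of the 4 groups at 4 h. Values are the MtWT response minus that of the deletion strain, each over 3 libraries a group. By the same rule 19.3% of all genes tested were called, and the genes with the largest increases and decreases were picked by their MtWT values, which also enter the difference. Most cellulase, LPMO, UPR and ER genes below were named by the study from these libraries for their levels in the deletion strain. Their differences are a description and not independent evidence. The exceptions are gh1-1, which the study names as a qPCR target, and Mycth_100518, which it does not name.

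Among the cellulases the differences were 2.35 for cellobiose dehydrogenase (Mycth_81925), 2.75 for the beta-glucosidase gene Mycth_66804, 1.48 for cbh-1 and 1.00 for gh1-1. The last is at the threshold. Among the LPMO genes the difference was 5.99 for Mycth_80312 and negative for 2 others, -1.05 for Mycth_110651 and -3.78 for Mycth_100518, whose starch levels were under 2 CPM. No read of Mycth_100518 was counted on starch in the deletion strain, so its fitted difference depends on the prior count and is no bound. For the UPR and ER genes Mycth_2315513, Mycth_2310016, Mycth_2296005, Mycth_2310995, Mycth_2295005, Mycth_2314691, Mycth_2073127, Mycth_2303597 and Mycth_2295433 it was 2.09, 2.06, 1.95, 1.94, 1.87, 1.66, 1.30, 1.29 and 1.02, in this order. The alpha-glucosidase gene Mycth_2303089 had a difference of -1.73. The study named it for its lower level in the deletion strain on starch, so this value is a description as well.

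Of the other large increases, Mycth_115957, Mycth_50128, Mycth_2303709 and Mycth_2303702, all in the longest run of neighbours, had differences of 7.80, 6.18, 5.85 and 3.08, and Mycth_2303045 and Mycth_98122 had 2.95 and 1.58. Of the other large decreases, Mycth_2070001, Mycth_2313117, Mycth_2310610, Mycth_2299985, Mycth_2301730, Mycth_77631, Mycth_2305739, Mycth_2300079 and Mycth_2303011 had differences of -6.01, -3.97, -3.83, -3.57, -3.33, -2.70, -2.27, -2.02 and -1.93. The sign of the response was opposite in the 2 strains for Mycth_2070001, at -4.99 in MtWT (-6.06 without Avicel replicate 1) and 1.02 in the deletion strain. The deletion-strain starch libraries held few or no reads of Mycth_115957, so the size of its fitted difference is no bound. No explanation of these differences was tested.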

How the results depend on the processing

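The 853 higher and 840 lower calls became 432 and 2414 (2846 in all) with library totals and 349 and 1780 with limma-trend on log2(RPKM + 1), a unit that also rests on library totals. The edgeR test against a 2-fold change gave 618 higher and 411 lower (1029 in all), and the adjusted p alone gave 3034 and 3347 (6381 in all). For the difference between strains the test against a 2-fold change gave 539 genes more positive and 453 more negative in MtWT (992 in all) against 871 and 787. Under the other alternatives these counts stayed within 1.5 times the main ones. Leaving out each library in turn gave 834 to 876 higher and 802 to 864 lower.

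Of 1608 values of 115 named genes under 14 alternatives, 1495 kept their sign and their side of the threshold, 104 lost the call, 1 gained it and 8 changed sign, all with library totals or RPKM: lhs1 (-0.16 and -0.15), actin (-0.03 and -0.03), Mycth_57779 (-0.46 and -0.46) and Mycth_2297659 (-0.28 and -0.28). The lists under 2 other scalings, and the run genes without each library, were computed after seeing the data. Which scaling is nearer to the amounts of RNA per cell was not tested.

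Same-numbered Avicel and starch libraries did not deviate together (correlations of -0.24, 0.01 and -0.27), so the numbers were not used to pair them. Between differently numbered libraries the correlations ran from -0.15 to 0.32, the highest being that of Avicel replicate 1 with starch replicate 3. A fit of the 6 libraries with a replicate block called 838 genes higher and 762 lower, and for the difference between strains, with a block within strain, 821 more positive and 797 more negative. Share values by summed RPKM differed in size but not in direction. The precision of genes under 1 CPM is limited by their few reads.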

Other observations

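Several shorter runs of neighbours held genes that no list covers. A run of 5 genes from Mycth_11658, described as a transferase, to Mycth_108314, with Mycth_108317 described by a phosphopantetheine attachment site, a feature of polyketide and peptide synthases, was lower on Avicel at 4 h. Mycth_11658 was at 476, 441 and 398 CPM on Avicel and 1036, 1056 and 1137 CPM on starch (log2 fold change -1.30), and Mycth_108317 was at 1234, 1259 and 879 CPM on Avicel and 2789, 2803 and 2667 CPM on starch (log2 fold change -1.29). At 6 h on Avicel the MtWT libraries held 1728, 1715 and 1623 CPM of Mycth_11658. In the deletion strain the contrast had the opposite sign for 4 of the 5, from 4.24 to 4.42, and the difference was called for all 5. A run of 7 genes from Mycth_2018746, an AMP-dependent synthetase, to Mycth_2308103 was lower on Avicel as well, with a median log2 fold change of -1.45 and a summed mean level of 38.5 CPM on Avicel and 137 CPM on starch.

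In a run of 5 genes called higher from Mycth_2130517 to Mycth_2071953, 4 were far higher in the second Avicel library than in the other 2. Mycth_2071514 was at 1492, 4076 and 1299.6 CPM on Avicel and 139, 160.0 and 144 CPM on starch, and its log2 fold change of 3.95 was 3.24 without that library. Mycth_2071504 and Mycth_2071953 moved from 4.12 and 3.61 to 3.39 and 2.80, and all 5 calls held. A run of 4 genes joined the sugar transporter Mycth_104673 and the family 31 glycoside hydrolase Mycth_104674 to Mycth_58882, at 39.4, 31.1 and 33.6 CPM on Avicel and 0.082, 0.128 and 0.213 CPM on starch, and to Mycth_2309695, whose call (log2 fold change 1.01) was lost without Avicel replicate 1 or 2 or starch replicate 1, at 0.98, 1.00 and 0.97. The 4 genes from Mycth_2135772 to Mycth_113600 were higher on Avicel at 4 h, with a summed mean level of 2764 CPM against 916 CPM on starch, and had 403 CPM at 6 h.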
